A study of Mus musculus with 12 samples.

Results

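Male OT-1 CD8+ T cells that had been electroporated with guide RNA but no Cas9 were compared with male OT-1 cells that had been activated without electroporation. OT-1 mice carry a transgenic T cell receptor that recognises an ovalbumin peptide, so their CD8 T cells share nearly one specificity. The comparison used 6 of the 12 RNA-seq libraries of the series, 3 titled WT and 3 titled Male. Male cells were isolated from spleen and stimulated for 3 days with beads carrying antibodies to CD3 and CD28, with mouse recombinant IL2 in the medium. WT cells came from another batch of male cells, received the guide alone and were collected after 3 days of culture, also in medium with IL2. Whether and when the electroporated batch met the beads, which sequence the guide targets, and how many mice gave the cells are not given in the sources used here. Batch, electroporation and guide RNA differed together between the groups, as may have the time since activation, and they cannot be told apart. The series also holds 3 Female libraries, handled like Male, and 3 KD libraries of the electroporated batch, which received Cas9 with a guide against Kdm5d. Their levels are given only as reference values.

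Electroporation opens the plasma membrane with a voltage pulse so that nucleic acid or protein can enter, and cells then reseal it with annexins, calcium-binding S100 proteins and the ESCRT machinery. The transcription factor ATF4 is translated when amino acids are short, when unfolded protein builds up or when other stress kinases act, and it switches on amino acid transporters, amino acid synthesis and tRNA charging. CD8 T cells that differentiate into effectors gain granzymes, perforin, inhibitory receptors and inflammatory chemokine receptors, and lose the lymph node homing molecules and factors such as TCF1 that mark naive and memory cells.

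Groups were taken from the titles, and the 3 libraries titled Male were also those of their table with more than 100 counts of Kdm5d, the Y-linked histone H3 lysine demethylase that the series targets. Since this count was used to choose them, the Kdm5d levels are given as a description, with no test. Kdm5d (chrY:897788-956786, GRCm38) stood at 50.3, 49.03 and 51.3 CPM (counts per 1000000 counts of a library, scaled by TMM over the 12 libraries) in Male and at 48.6, 52.2 and 52.6 CPM in WT. Male and WT libraries held between 87925263 and 110803318 counts. Replicates were close: for genes at 10 CPM or more the SD was a median of 2.75% of the mean in Male and 2.5% in WT. Since nothing states that replicates came from separate mice or cultures, the p-values below measure only the spread between these libraries, which may be technical. Of 12 CD8 T cell markers, 9 were higher in WT, 2 were lower (Cd2 and Cd5) and Cd8b1 did not pass. The 12 summed to 5561 to 5686 CPM in Male and 6774 to 6895 CPM in WT. KD did not share this rise, at 5550 to 5719 CPM. The segment Trbv12-1 took 99.5% to 99.7% of all Trbv counts in Male and 99.1% to 99.2% in WT, and Trav14 segments took 72.7% to 76.8% and 80.9% to 84.7% of Trav counts. Residual ribosomal RNA differed between libraries, at 1320, 5026 and 13670 CPM in Male and 488, 969 and 982 CPM in WT.

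Across 20304 tested genes, 10089 (49.7%) differed between WT and Male at an adjusted p under 0.05 (edgeR quasi-likelihood test, Benjamini-Hochberg). Higher levels in WT were called for 5087 genes (25.1%) and lower levels for 5002 genes (24.6%). Most of these differences were small, with a median absolute log2 fold change of 0.41 among called genes. A difference of at least 1 log2 unit was called for 790 genes upward (3.89%) and 839 downward (4.13%). The 3 libraries of one group did not overlap those of the other for 57.9% of tested genes. The first principal component of log2 CPM held 55.4% of the variance and separated the groups. Because the background is this high, the counts for gene lists below are to be read against 25.1% higher and 24.6% lower. Numbers written as a ± b in parentheses below are log2 fold changes of WT over Male with their SE, from 3 libraries against 3, and levels are means of 3 libraries unless each library is given. All 6 libraries of the electroporated batch (WT and KD) lay above all 6 Female and Male libraries for 3145 tested genes (15.5%), and below them for 3312 (16.3%).

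**Figure D1:**
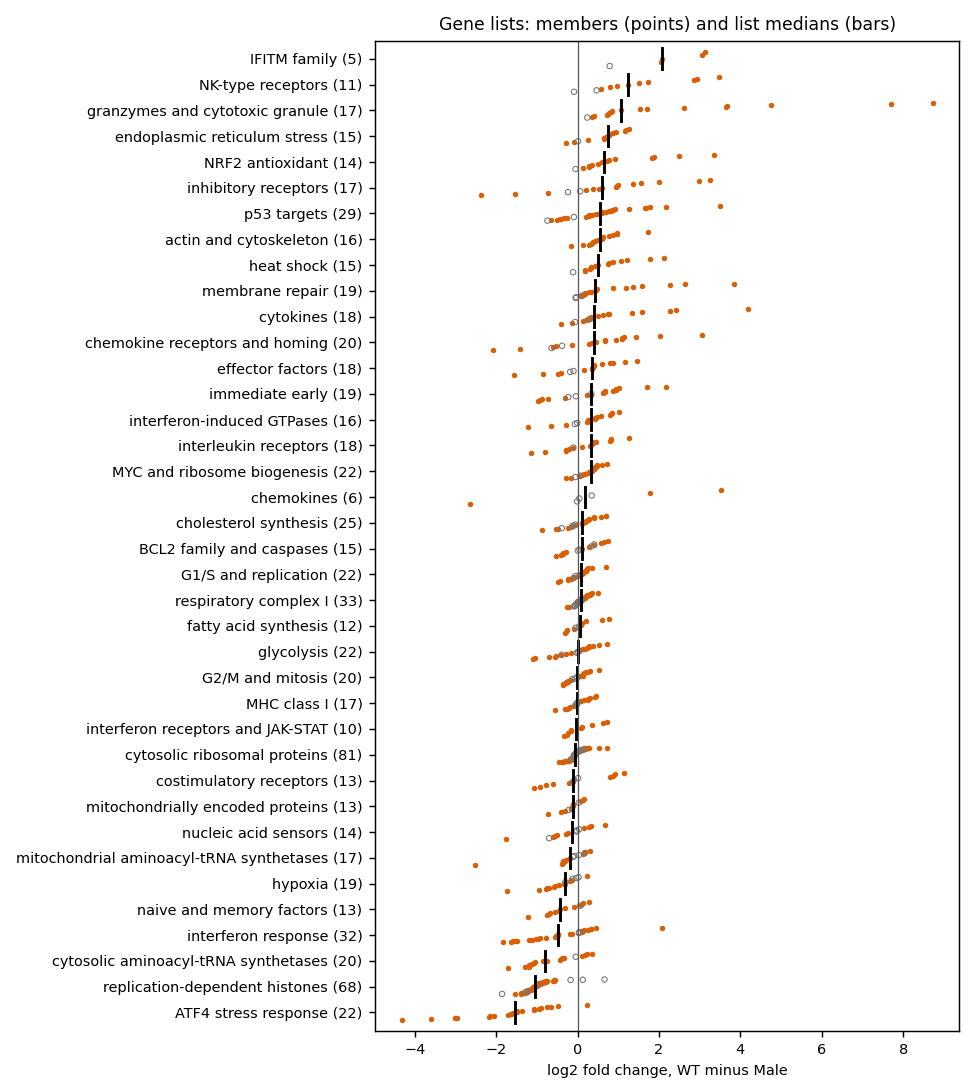
Log2 fold change of WT over Male (x axis) for each tested member of the gene lists (y axis, number tested in parentheses). Filled points are genes with an adjusted p under 0.05, open points are the others, and black bars are list medians. The 3 granzyme points farthest right are Gzmd, Gzme and Gzmg, of which Gzmd is a fitted value resting on 7 counts in Male and the other two, like Eda2r among p53 targets, are lower bounds. The sex-linked list and the small nuclear RNA list are not drawn.

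Genes of the ATF4 program were lower in electroporated cells. Of 22 tested genes of the ATF4 stress response, 21 fell in WT and 1 rose, with a median log2 fold change of -1.54, against -0.01 over all tested genes. In 18 of the 22, both WT and KD libraries lay below every Female and Male library. Trib3, a pseudokinase that ATF4 induces and that feeds back on it, was at 282, 284 and 278 CPM in Male and 67.1, 68.3 and 67.4 CPM in WT, and the groups were far apart (-2.06 ± 0.019, adjusted p = 3.04e-13). Chac1, which degrades glutathione, fell from 26.2, 25.5 and 27.2 CPM to 3.30, 3.39 and 3.14 CPM (-3.0002 ± 0.06). Asns, asparagine synthetase, stood at 174, 166 and 165 CPM in Male and 54.3, 52.1 and 56.8 CPM in WT (-1.63 ± 0.034). In each of these 3 genes every WT library lay far below every Male library. The transcription factors of the pathway were lower too: Atf4 itself fell from 419.8 to 224 CPM, Atf5 from 24.5 to 8.15 CPM, Cebpb from 20.5 to 7.27 CPM and Ddit3, which encodes CHOP, from 27.9 to 6.28 CPM. Aldh1l2, a mitochondrial folate enzyme, had the widest difference of the list, at 7.96, 7.27 and 6.28 CPM against 0.267, 0.438 and 0.372 CPM (-4.32 ± 0.18). The exception was Ddit4, an inhibitor of mTORC1 that other stresses also induce, which rose from 188 to 220.3 CPM (0.23 ± 0.027).

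Promoters of the list were searched for the element that ATF4 is known to bind. The 250 bases before the start of transcription were read from RefSeq (GRCm38.p6), which held promoters for 20 of the 22 symbols of the list. The sequence TGATGNAA, the core of the element that ATF4 binds with C/EBP partners, was present on either strand in 7 of 20 (35%), namely Atf3, Chac1, Asns, Vldlr, Slc7a11, Pck2 and Nupr1. Over 27025 genes with a promoter it was present in 1056 (3.91%). This motif was chosen after the values were seen, and a match is a description of letters, not a bound site. The list was made of genes known for the ATF4 response. The share with the element therefore does not bear on how these genes changed here. The promoters of Chac1 and Asns are shown as examples, and each holds 1 match, given in capitals. Both genes fell, and so did genes whose promoters held no match: Trib3 (-2.06), Ddit3 (-2.15), Atf5 (-1.58) and Slc3a2 (-1.71, log2 fold changes). A link between the element and the fall was not tested. The Chac1 window is chr2:119350992-119351241 on the plus strand, with the match on the other strand, starting 193 bases before the start of transcription. The Asns window is chr6:7693210-7693459 on the minus strand, with its match 23 bases before the start of transcription.
Chac1: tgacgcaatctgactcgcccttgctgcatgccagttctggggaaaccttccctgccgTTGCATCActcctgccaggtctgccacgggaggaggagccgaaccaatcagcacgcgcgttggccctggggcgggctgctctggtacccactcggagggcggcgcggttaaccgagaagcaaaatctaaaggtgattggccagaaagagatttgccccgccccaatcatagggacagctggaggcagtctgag
Asns: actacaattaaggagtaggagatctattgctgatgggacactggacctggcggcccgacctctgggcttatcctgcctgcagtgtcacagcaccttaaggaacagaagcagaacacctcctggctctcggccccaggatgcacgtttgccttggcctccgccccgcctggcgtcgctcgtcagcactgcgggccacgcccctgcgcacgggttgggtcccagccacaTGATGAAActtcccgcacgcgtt

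Other members of the ATF4 list carry amino acids or make serine and one-carbon units. Slc7a5 and Slc3a2 encode the chains of the LAT1 transporter, which brings leucine and other large neutral amino acids into activated T cells. Slc7a5 was at 969, 982 and 970.3 CPM in Male and 344, 346 and 342 CPM in WT, with no overlap (-1.50 ± 0.012, adjusted p = 1.43e-13). Slc3a2 fell from 447 to 136 CPM (-1.71 ± 0.017). The serine and one-carbon enzymes of the list fell too: Phgdh -0.66 ± 0.019, Psat1 -1.06 ± 0.019, Psph -1.07 ± 0.047, Shmt2 -1.35 ± 0.014 and Mthfd2 -0.94 ± 0.024 on the log2 scale. Gpt2, the mitochondrial alanine aminotransferase, is outside the list and was among the 12 falling genes with the smallest p, at 98.02, 95.9 and 95.1 CPM against 5.42, 5.88 and 6.30 CPM. Its level in KD was 2.48 CPM and in Female 70.7 CPM, so the electroporated batch as a whole stood below the other libraries. Eif4ebp1, the mTORC1 substrate that restrains cap-dependent translation and is an ATF4 target, is also outside the list and fell from 95.3 to 21.1 CPM (-2.17 ± 0.029). Pck2, which makes phosphoenolpyruvate in mitochondria, fell from 132 to 29.2 CPM (-2.17 ± 0.038).

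Of 20 cytosolic aminoacyl-tRNA synthetases, the enzymes that charge tRNAs, 15 were lower in WT and 4 were higher, with a median log2 fold change of -0.80. This list was made after the values were seen. Cars, for cysteine, was at 181, 178 and 173 CPM in Male and 52.5, 56.7 and 52.6 CPM in WT (-1.72 ± 0.033). Nars, Aars, Sars, Lars, Mars, Iars, Eprs and Yars also fell by more than 1 log2 unit, from -1.04 for Yars to -1.29 for Nars. Qars, Rars, Hars and Farsa were the 4 that rose, by 0.10 to 0.35, and Kars did not pass (-0.05 ± 0.02). The 17 mitochondrial synthetases, from a list made in the same way, had 9 lower, 4 higher and a median of -0.18. Their one large difference was Lars2 at 319.7, 756 and 105 CPM in Male and 79.8, 51.4 and 72.9 CPM in WT. It stood at -1.64 without the second Male library. Lars2 followed the residual ribosomal RNA library by library, highest in the second Male library where that RNA was also highest, and the part of that RNA in its difference was not tested.

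Protein folding genes went the other way. Of 15 genes of the endoplasmic reticulum stress response, 12 rose in WT, 2 fell and 1 did not pass (median 0.74). Hspa5, the chaperone BiP of the endoplasmic reticulum, was at 451, 449 and 445 CPM in Male and 1006, 995 and 1007 CPM in WT (1.16 ± 0.012, adjusted p = 7.36e-13). The calcium-binding chaperone Calr rose from 325 to 782 CPM (1.27 ± 0.018), Creld2 from 17.01 to 38.8 CPM and Hyou1 from 225 to 435 CPM. Each of the 12 that rose lay higher in all WT and KD libraries than in any Female or Male library. The 2 that fell were Herpud1 (-0.29 ± 0.028) and Sel1l (-0.10 ± 0.03), both parts of the pathway that exports misfolded protein for degradation. Sel1l lost its call without Male replicate 1 or WT replicate 2 or 3, at -0.08 each time, and Edem1 stood at 0.01 ± 0.015. Ddit3, which the same stress can also induce, was among the genes that fell.

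Of 15 tested cytosolic and mitochondrial heat shock genes, 14 rose and none fell, with a median of 0.51. Hspa8, the constitutive HSC70, was at 1322, 1329 and 1319.96 CPM in Male and 3108, 3055 and 3099 CPM in WT (1.22 ± 0.0096, adjusted p = 1.43e-13). The inducible genes Hspa1a and Hspa1b were low in both groups, at 0.404 and 1.02 CPM in Male and 1.76 and 3.53 CPM in WT (2.12 ± 0.22 and 1.79 ± 0.19). Both share most of their sequence, so reads may have been split between them. Hsph1, a nucleotide exchange factor of HSP70, rose from 81.4 to 169 CPM (1.06 ± 0.023), and Hspa4l was the member that did not pass (-0.11 ± 0.042).

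**Figure D2:**
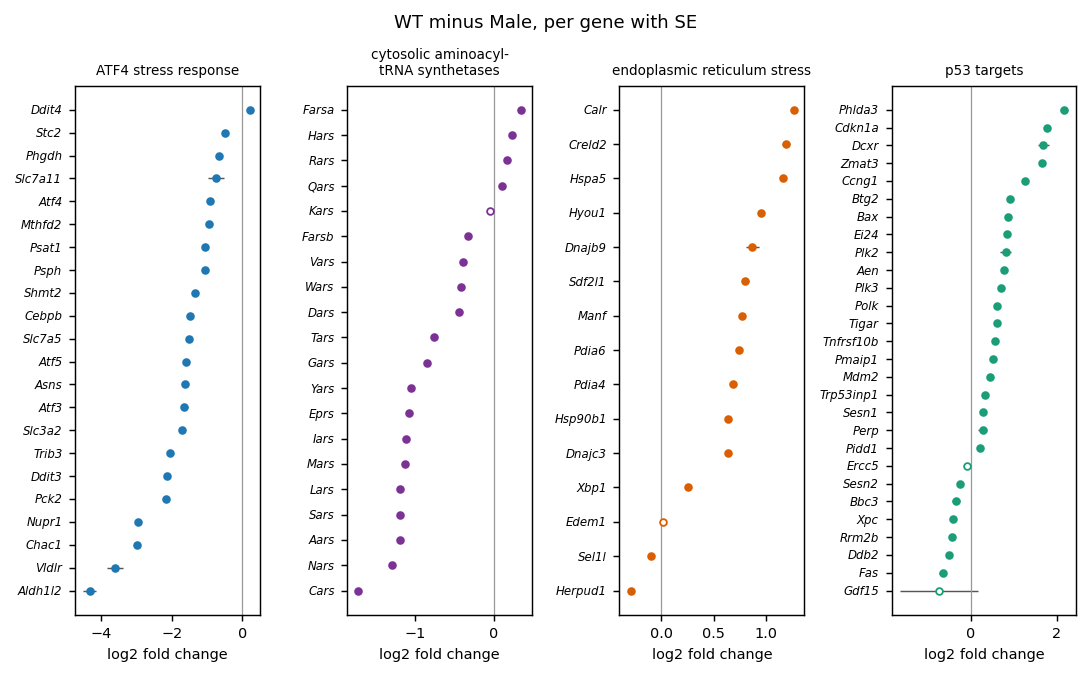
Log2 fold change of WT over Male (x axis) for the tested members of 4 lists, with bars for the SE from 3 libraries against 3. Filled points have an adjusted p under 0.05. The ATF4 list runs from 0.23 (Ddit4) down to -4.32 (Aldh1l2), most cytosolic tRNA synthetases are below 0, and most chaperone and p53 target genes are above it. Eda2r, with no count in Male, is not drawn.

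NRF2 controls the antioxidant genes that cells use against oxidised thiols. In this list 13 of 14 genes rose, none fell, and Hmox1 did not pass (-0.05 ± 0.063), with a list median of 0.65. Osgin1, a growth inhibitor gene induced by oxidants, was at 1.74, 2.50 and 2.00 CPM in Male and 21.1, 21.5 and 21.1 CPM in WT (3.35 ± 0.11). Sulfiredoxin, encoded by Srxn1, was at 3.52, 4.49 and 3.81 CPM and 22.4, 22.2 and 22.4 CPM (2.50 ± 0.084). For both genes each WT library held several times the level of any Male library. Nqo1, a quinone reductase, rose from 3.36 to 11.8 CPM and the more abundant Txnrd1 and Prdx1 rose by 0.59 and 0.71. For 10 of the 14 genes WT and KD both lay above the other table, although KD was lower than WT for Osgin1 (9.66 CPM) and Srxn1 (14.8 CPM).

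Targets of p53, the factor activated by DNA breaks and other damage, were higher in 21 of 29 cases and lower in 6, with a median of 0.56. Cdkn1a, the cell cycle inhibitor p21, was at 68.6, 69.3 and 68.4 CPM in Male and 238, 234 and 233 CPM in WT (1.78 ± 0.02, adjusted p = 1.13e-12). Phlda3 rose from 4.67 to 20.9 CPM (2.17 ± 0.098), Zmat3 from 32.4 to 102 CPM (1.65 ± 0.038) and Ccng1 from 189 to 457 CPM (1.27 ± 0.018). The TNF receptor family gene Eda2r had no count in any Male library and 0.369 CPM in WT, at least 11.4-fold higher against a floor of 3 counts per library. Male and Female levels of Cdkn1a were close (68.8 and 64.5 CPM), while KD, which also received Cas9, stood above WT at 324 CPM. The pro-apoptotic Bax rose from 63.7 to 116 CPM and the p53 ubiquitin ligase Mdm2 from 79.96 to 109 CPM. The 6 members that fell included the death receptor Fas (-0.65 ± 0.082) and the repair genes Ddb2 (-0.50 ± 0.046), Xpc (-0.41 ± 0.041) and Rrm2b (-0.44 ± 0.05), so the list moved in both directions.

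Membrane repair genes rose in 16 of 19 tested cases and none fell (median 0.43). The large differences were in annexin and S100 genes. Anxa1 was at 1.83, 1.97 and 2.56 CPM in Male and 30.7, 31.3 and 29.6 CPM in WT (3.85 ± 0.10). S100a6 was at 55.9, 55.2 and 55.7 CPM and 271, 257 and 276 CPM (2.27 ± 0.029), and S100a4 rose from 9.00 to 56.02 CPM (2.64 ± 0.039). No WT library overlapped a Male library in these 3 genes. Anxa2 and its partner S100a10 rose by 0.86 and 1.18, and the ferlin Myof rose from 1.91 to 4.89 CPM. The ESCRT genes, which pinch off wounded membrane, differed little: Pdcd6ip rose by 0.43 and Vps4b by 0.18, while Chmp4b (-0.05 ± 0.027), Vps4a (-0.03 ± 0.05) and Tsg101 (0.11 ± 0.049) did not pass. S100a4, S100a6 and Anxa1 are also known to be expressed by effector T cells.

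Cytoskeletal genes shared this direction, with 15 of 16 higher, Tmsb10 lower (-0.16 ± 0.026) and a median of 0.55. Beta-actin, Actb, was at 9988, 10017 and 9696 CPM in Male and 17086, 16886 and 16669 CPM in WT (0.77 ± 0.01). The tubulin Tubb6 rose from 24.6 to 81.9 CPM (1.74 ± 0.058), Vim, encoding vimentin, rose by 0.86 and Tmsb4x, an actin monomer binder, by 0.97. Plec, which links intermediate filaments to actin and is outside this list, was among the 12 rising genes with the smallest p (from 454 to 924 CPM).

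**Figure D3:**
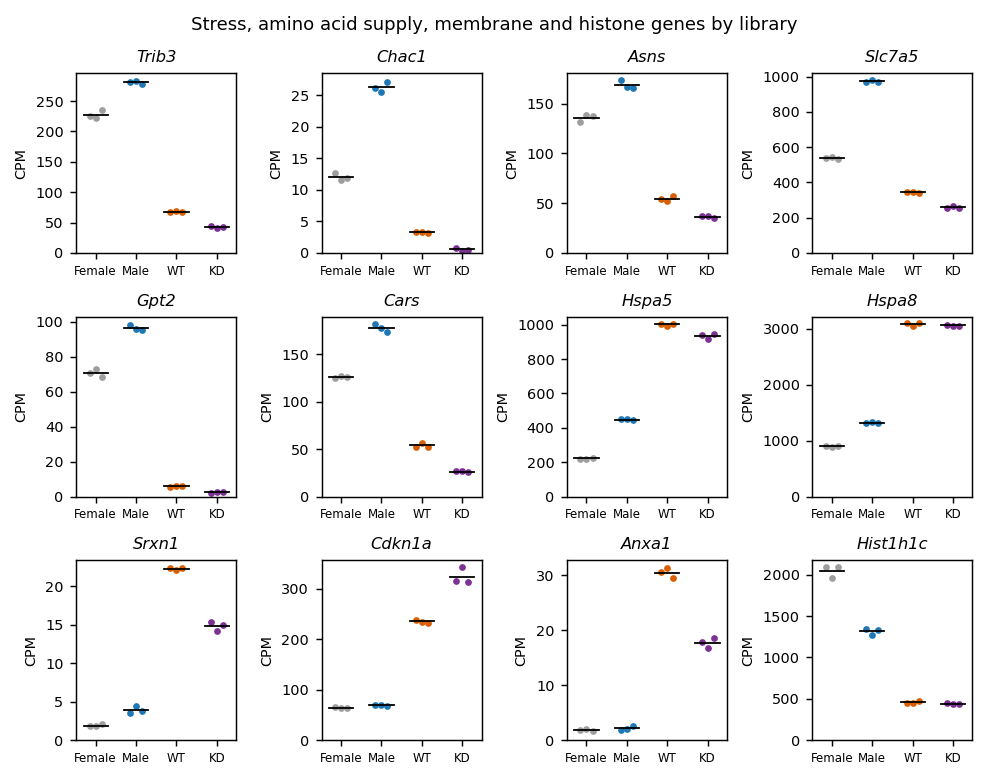
Level of 12 genes in CPM (y axis, from 0) in the 3 libraries of each group (points) with the group mean (line). Trib3, Chac1, Asns, Slc7a5, Gpt2, Cars and Hist1h1c are lower in WT than in Male in every library, and Hspa5, Hspa8, Srxn1, Cdkn1a and Anxa1 are higher. KD shares the batch of WT and lies on the same side of Male in all 12.

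Genes of the cytotoxic granule were higher in WT than in Male. Of 17 tested, 16 rose, none fell and Gzmm did not pass (0.24 ± 0.18), with a median of 1.07. For 11 of the 17, all WT and KD libraries lay above every Female and Male library. Gzma (chr13:113093825-113100981), the tryptase granzyme, was at 53.2, 51.4 and 50.4 CPM in Male and 650.3, 656 and 650.1 CPM in WT (3.66 ± 0.021, adjusted p = 2.07e-14), the smallest p of any gene outside the X and Y chromosomes that was higher by at least 1 log2 unit. It was at 35.8 CPM in KD, below Male, and at 5.61 CPM in Female, so WT was the highest of the 4 groups. Granzyme B, which cuts caspases and BID, was already abundant: Gzmb was at 2362, 2416 and 2352 CPM in Male and 5072, 4937 and 4977 CPM in WT (1.07 ± 0.012). The pore former Prf1 rose from 20.1 to 65.2 CPM (1.70 ± 0.045), and the granule proteins Nkg7 and Srgn rose by 0.82 and 0.85. Fasl rose from 41.6 to 68.9 CPM (0.73 ± 0.028).

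The granzyme cluster on chromosome 14 held genes that were close to silent in Male. Gzmc was at 4.10, 4.62 and 4.71 CPM in Male and 28.03, 27.96 and 26.5 CPM in WT (2.62 ± 0.065). Gzme had no count in Male and 6.58, 7.00 and 6.68 CPM in WT, at least 209-fold higher against the floor of 3 counts per library. Gzmg, likewise at 0 in Male, was at 1.15, 0.595 and 0.858 CPM, at least 26.8-fold higher. Gzmd held 7 counts in 1 Male library and none in the other two, against 10.5, 11.3 and 11.8 CPM in WT. Gzmf was at 0.0691 CPM in Male and 0.871 CPM in WT. KD libraries held these genes too, at 10.4 CPM for Gzmd and 5.37 CPM for Gzme, and Female did not (0.0207 and 0.0172 CPM). Gzmd, Gzme, Gzmf and Gzmg are near copies of one another, and how reads were divided among them is not known.

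Of 18 tested cytokine genes, 14 rose and 2 fell. Spp1, osteopontin, was at 0.962, 0.631 and 1.09 CPM in Male and 16.6, 17.1 and 14.8 CPM in WT (4.18 ± 0.16). Ifng rose from 2.19 to 6.58 CPM (1.59 ± 0.13) and Tnf from 66.5 to 111 CPM (0.74 ± 0.037), both without overlap between the groups. Il24, from the IL10 family, rose from 0.209 to 1.13 CPM. Ltb and Lta, which encode lymphotoxins, fell (-0.41 and -0.14). Among chemokines, Ccl3 rose from 0.172 to 2.00 CPM (3.53 ± 0.40) and Ccl4 from 1.18 to 4.05 CPM (1.78 ± 0.20). The Ccl3 difference rests on few counts and was 4.35 without the second Male library. Cxcl10 fell from 11.3 to 1.81 CPM (-2.64 ± 0.12), and Ccl5, Xcl1 and Mif did not pass. Il2 was left out by the low-count filter and not tested, at 0 CPM in Male and a mean of 0.285 CPM in WT. That filter asks for a minimum level in 3 libraries, so not every WT library reached it.

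Of 20 tested genes for chemokine receptors and homing, 13 rose and 5 fell. WT and KD libraries all lay above the Female and Male libraries in 9 of the 20, and all below them in 3. Ccr7, the receptor for lymph node chemokines, was at 66.1, 70.2 and 66.2 CPM in Male and 25.7, 25.6 and 25.02 CPM in WT, with no overlap (-1.41 ± 0.035, adjusted p = 2.09e-10). Cxcr6, a receptor found on tissue T cells, was at 31.6, 31.8 and 31.8 CPM and 131, 132 and 127 CPM (2.04 ± 0.026), and Ccr2, for inflammatory chemokines, rose from 129.96 to 351 CPM (1.44 ± 0.025). Itga1, of a collagen-binding integrin, rose from 0.777 to 6.42 CPM (3.05 ± 0.13) and Itgae, of an epithelium-binding one, from 11.98 to 25.5 CPM (1.09 ± 0.052). Ccr2 in KD (117 CPM) was below Male.

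Inhibitory receptors did not move together: 12 of 17 rose and 3 fell. WT and KD libraries all lay above the Female and Male libraries in 7 of the 17, and all below them in 4. Cd244a, the SLAM-family receptor 2B4, was at 4.90, 5.78 and 5.77 CPM in Male and 51.6, 51.6 and 53.3 CPM in WT (3.25 ± 0.061). Havcr2, which encodes TIM-3, was at 2.79, 3.78 and 2.92 CPM and 25.4, 25.5 and 24.4 CPM (2.99 ± 0.1). Cd160, Pdcd1 (PD-1) and Entpd1 (CD39) rose by 2.01, 1.55 and 1.36. Ctla4, whose product competes with CD28, went down from 239.98, 234 and 234 CPM to 81.2, 80.5 and 82.4 CPM (-1.53 ± 0.021), with Cd200 (-2.37 ± 0.21) and Btla (-0.73 ± 0.032). Lag3 (0.06 ± 0.032) did not pass. Costimulatory receptors had 4 of 13 higher, led by Tnfrsf8 (1.13 ± 0.055), Slamf7 (0.91 ± 0.025) and Tnfrsf9 (0.87 ± 0.016), and 7 lower, among them Slamf6 (-0.92 ± 0.045), a marker of stem-like cells. Interleukin receptors had 11 of 18 higher, including the IL2 receptor chains Il2ra (0.39 ± 0.011) and Il2rb (0.83 ± 0.014), and 6 lower, led by Il6st (-1.14 ± 0.038).

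Factors of naive and memory cells were lower in 9 of 13 cases and higher in 3 (median -0.42). Tcf7, which encodes TCF1, was at 149, 153 and 154 CPM in Male and 67.8, 64.4 and 63.5 CPM in WT (-1.22 ± 0.03). Satb1, Myb and Bach2 fell (-0.75, -0.70 and -0.56), while Klf2 did not pass. Lef1 was called at -0.09 ± 0.028, a call lost without Male replicate 2 or 3 or WT replicate 1 or 3, where it stood between -0.07 and -0.09. Effector factors rose in 12 of 18 cases and fell in 4. WT and KD libraries all lay above the Female and Male libraries in 5 of the 18, and all below them in 4. Id2, the antagonist of E proteins that effector cells depend on, was at 80.4, 74.3 and 75.5 CPM and 211, 204 and 215 CPM (1.46 ± 0.033), Irf8 rose by 1.16 and Tbx21, encoding T-bet, by 0.87. Batf3 fell from 17.4 to 5.91 CPM (-1.56 ± 0.068), and Tox fell by 0.47.

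Receptors shared with natural killer cells rose in 9 of 11 tested cases and none fell. All WT and KD libraries lay above every Female and Male library in 5 of the 11. Klrd1, which encodes CD94, rose from 35.5 to 117 CPM (1.72 ± 0.027), Klrk1 (NKG2D) from 43.1 to 84.7 CPM (0.98 ± 0.036), Cd7 from 1.39 to 10.6 CPM and the signalling chain Fcer1g from 1.08 to 7.92 CPM. Summed markers of other cell types were higher in WT for some types and lower for others. The 5 natural killer markers summed to 0.481 to 0.667 CPM in Male and 2.46 to 2.95 CPM in WT, with Klra8 at 0 in both groups. All 3 that were tested were called higher, each by at least 1 log2 unit. The 9 macrophage and monocyte markers summed to 3.27 to 3.48 CPM in Male and 6.23 to 7.26 CPM in WT, nearly all of it Cd68, with C1qa, C1qb and C1qc at 0. Of 3 tested, 2 were called higher by at least 1 log2 unit and none lower. The 5 mast cell and basophil markers summed to 2.21 to 2.93 CPM in Male and 8.55 to 9.73 CPM in WT, with Fcer1a and Ms4a2 at 0. The 8 B cell markers summed to 298 to 319 CPM in Male and 260.0 to 265 CPM in WT, against 609 to 614 CPM in Female. Nearly all of that sum was Ighm, an immunoglobulin heavy chain gene, which fell from 306 to 257 CPM (-0.25 ± 0.023), while Ms4a1 and Ebf1, which define B cells, were at 0 in Male and WT. Of 3 tested B cell markers, 1 was called higher and 1 lower. The 4 CD4 T cell markers summed to 53.9 to 58.1 CPM and 45.2 to 47.6 CPM, most of it Zbtb7b (from 50.9 to 42.4 CPM), with Cd4 at 0 CPM in Male and 0.0153 CPM in WT. Of 3 tested CD4 markers, 1 was called higher and 2 lower. The 8 neutrophil markers summed to 0.211 to 0.428 CPM in Male and 0.527 to 0.720 CPM in WT, with S100a8, S100a9 and Elane at 0. Sums for 6 red cell markers (0.602 to 1.35 and 0.449 to 0.634 CPM) and 4 platelet markers (0.967 to 1.42 and 0.956 to 1.36 CPM) overlapped. The 6 stroma and endothelium markers summed to 38.7 to 39.9 CPM in Male and 35.9 to 38.01 CPM in WT, with Col3a1, Dcn and Cdh5 at 0. Of the 8 dendritic cell markers Itgax (from 0.454 to 3.59 CPM) and Xcr1 (from 0.213 to 2.79 CPM) rose while H2-Ab1 fell (from 5.60 to 1.64 CPM), with sums of 10.9 to 12.5 and 13.03 to 14.4 CPM. The 4 gamma-delta T cell markers summed to 166 to 177 CPM in Male and 267 to 270.3 CPM in WT. The sums were led by Trdc (from 124 to 164 CPM) and Tcrg-C1 (from 42.9 to 101 CPM). Of the 4 tested, 3 were called higher, 1 of them by at least 1 log2 unit. The remaining marker was called lower, also by at least 1 log2 unit. Tcrg-C1 shares 51% of its short subsequences with another gene, so its count is uncertain. In bulk RNA more cells of a type and more RNA per cell cannot be told apart, and the part of other cells in these differences was not tested.

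**Figure D4:**
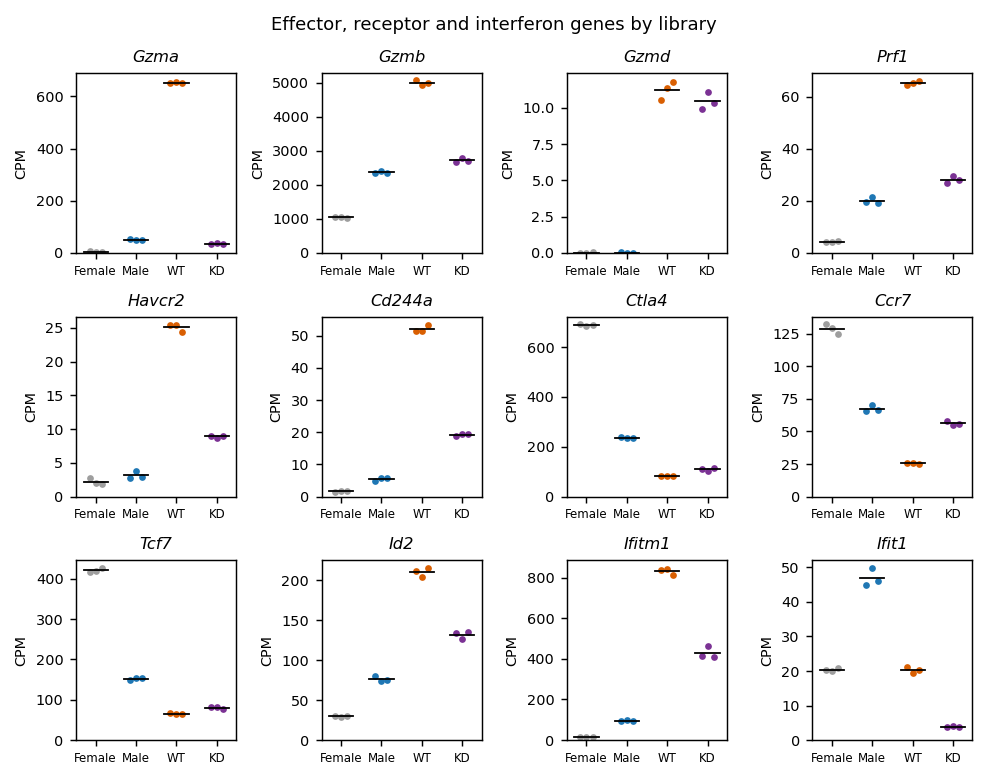
Level of 12 genes in CPM (y axis, from 0) in the 3 libraries of each group (points) with the group mean (line). Gzma, Gzmb, Gzmd, Prf1, Havcr2, Cd244a, Id2 and Ifitm1 are higher in WT than in Male in every library, and Ctla4, Ccr7, Tcf7 and Ifit1 are lower. Gzma in KD lies below Male, while Gzmd in KD lies near WT.

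In the interferon response list 20 of 32 genes fell, 9 rose and 3 did not pass (median -0.48). Oasl1, an antiviral protein related to the OAS enzymes, was at 17.2, 16.1 and 13.9 CPM in Male and 5.10, 4.14 and 4.00 CPM in WT (-1.83 ± 0.11). Ifit1, which binds foreign RNA caps, was at 44.9, 49.8 and 46.02 CPM and 21.3, 19.5 and 20.4 CPM (-1.20 ± 0.048), and Ifit3 fell from 21.99 to 7.81 CPM (-1.49 ± 0.059). Rsad2, which encodes viperin, fell from 28.9 to 9.29 CPM (-1.63 ± 0.048), and Isg15 from 41.5 to 19.00 CPM (-1.13 ± 0.05). Groups did not overlap in these 5 genes. Female libraries were also low, with 20.4 CPM for Ifit1 and 4.19 CPM for Rsad2, so none of the 32 genes was lower in all 6 electroporated libraries than in all 6 others. Mx1 (0.13 ± 0.031), Oas2 (0.33 ± 0.061) and Isg20 (0.45 ± 0.051) were among those that rose.

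Promoters of the list were also searched for the element through which type I interferon is known to act. RefSeq (GRCm38.p6) held promoters for 23 of the 32 genes, and the core of the interferon-stimulated response element (GAAA, any 2 bases, then GAAA) was present on either strand of the 250 upstream bases in 11 (47.8%), against 936 of all 27025 (3.46%). The windows are chr19:34640639-34640888 for Ifit1 and chr19:34583279-34583528 for Ifit3, both on the plus strand, and each holds 2 matches, in capitals, that do not overlap and lie on the other strand. In Ifit1 they start 104 and 85 bases before the start of transcription and in Ifit3 156 and 122 bases before it. The list was made of known interferon-induced genes, and members that rose and fell were counted together. The share with the element therefore does not bear on how these genes changed here, and a match is not a bound site.
Ifit1: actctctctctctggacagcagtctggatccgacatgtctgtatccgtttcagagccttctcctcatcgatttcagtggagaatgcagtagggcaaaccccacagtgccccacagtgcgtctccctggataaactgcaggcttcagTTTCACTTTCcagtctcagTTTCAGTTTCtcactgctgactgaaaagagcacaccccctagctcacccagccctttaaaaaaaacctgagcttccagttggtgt
Ifit3: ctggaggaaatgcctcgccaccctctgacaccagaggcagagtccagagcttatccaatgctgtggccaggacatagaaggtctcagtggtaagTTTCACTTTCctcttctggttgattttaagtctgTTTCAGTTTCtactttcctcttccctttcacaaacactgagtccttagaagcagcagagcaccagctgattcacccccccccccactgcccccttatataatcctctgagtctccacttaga

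The IFITM genes, whose products block virus entry at membranes, went up. Ifitm1 (chr7:140967221-140969825) was at 95.6, 98.2 and 93.3 CPM in Male and 839, 844 and 813 CPM in WT (3.12 ± 0.022, adjusted p = 5.93e-14). Ifitm2 rose from 22.2 to 186 CPM (3.07 ± 0.041), Ifitm3 from 33.96 to 142 CPM (2.06 ± 0.031) and Ifitm5 from 0.701 to 2.91 CPM, and all 4 lay higher in every WT and KD library than in any Female or Male library. Ifitm10 did not pass (0.79 ± 0.31). This family was listed after its values were seen, apart from Ifitm3. Among 7 family members with a promoter in RefSeq, the same element occurred in 1, Ifitm2, and not in Ifitm1 or Ifitm3 within the 250 bases.

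The interferon-induced GTPases, which attack vacuoles of intracellular microbes and respond strongly to interferon gamma, rose in 11 of 16 cases and fell in 3. Tgtp1 rose from 95.2 to 193 CPM (1.02 ± 0.02), Iigp1 from 109 to 190.03 CPM (0.81 ± 0.026) and Irgm1 from 126 to 217 CPM (0.79 ± 0.021), whereas Gbp5 fell from 75.4 to 32.6 CPM (-1.21 ± 0.031). Receptor and signalling genes changed by less than 1 log2 unit each, 5 up and 5 down of 10: the feedback inhibitor Socs1 rose by 0.73 and Irf1 by 0.63, and Ifngr1 fell by 0.32. Of 14 tested nucleic acid sensors 4 rose and 6 fell, with Tlr7 (-1.76 ± 0.096) and Ifih1, the RNA sensor MDA5 (-0.61 ± 0.033), lower and Myd88 (0.67 ± 0.033) higher. MHC class I genes were balanced, at 7 higher and 6 lower of 17, and H2-K1 and H2-D1 did not pass (-0.01 ± 0.011 and 0.01 ± 0.012).

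Replication-dependent histone transcripts were lower in 61 of 68 cases and higher in none, with a median log2 fold change of -1.06. Transcripts of this class typically end in a stem-loop in place of a poly(A) tail and are made in S phase. The list was taken by gene name, so single members may differ. In 1 of the 68 every WT library lay above every Male library, without a call. Summed over the 68 genes they took 30615, 30974 and 31090 CPM in Male and 13659, 15232 and 15382 CPM in WT, so every WT library lay far below every Male library. The linker histone Hist1h1c was at 1350.1, 1271 and 1328 CPM and 444, 449.9 and 473 CPM (-1.53 ± 0.028), and Hist1h1a fell from 858 to 374 CPM (-1.20 ± 0.017). The 61 that fell also lay below the other table in KD. Other short RNAs, most of them without poly(A) tails, differed by class. Annotated small nuclear RNA summed to 405 to 460.1 CPM in Male and 227 to 257 CPM in WT. Small nucleolar RNA summed to 261 to 289 CPM and 225 to 228 CPM, with 264 to 296 CPM in KD. RNA annotated as miscellaneous summed to 30590 to 33310 CPM in Male and 24920 to 26300 CPM in WT, with 25690 to 29500 CPM in KD. Ribozyme RNA overlapped, at 4931 to 5177 CPM in Male and 4697 to 4946 CPM in WT. Protein-coding RNA summed to 867200 to 877300 CPM in Male and 917400 to 919500 CPM in WT, with 882400 to 886800 CPM in KD. The part of RNA handling in the histone difference was not tested.

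**Figure D5:**
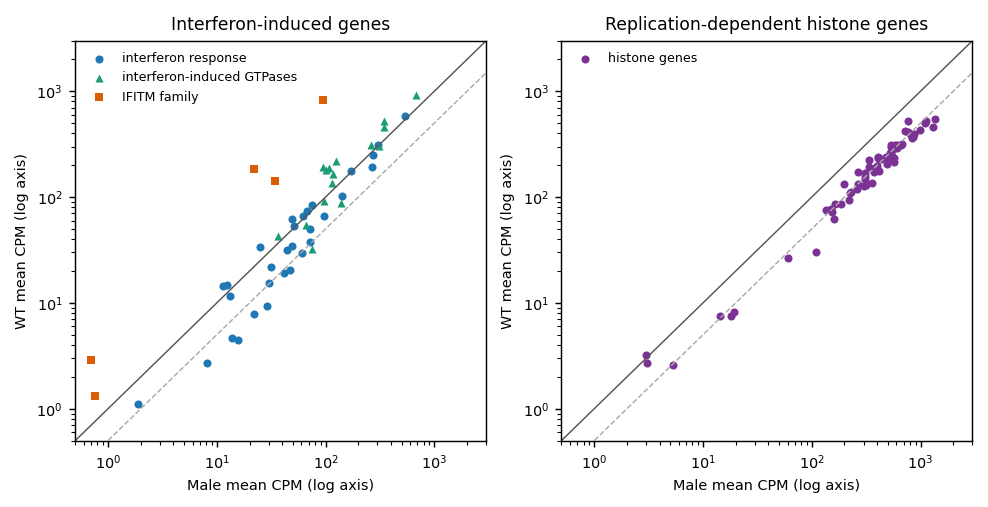
Mean level in WT (y axis) against Male (x axis), both in CPM on log axes, with lines for equal levels (solid) and for a level lower by 1 log2 unit (dashed). On the left most interferon response genes lie on or below the solid line, most GTPases just above it and the IFITM genes well above it; Ifitm3 is drawn with its family. On the right are the histone genes above 1 CPM in Male. Of the 68 listed, 61 were lower in WT, 39 of them by at least 1 log2 unit, and 7 did not pass.

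S phase and division genes did not show the histone difference. Of 22 replication genes 12 rose and 7 fell (median 0.09), with Rrm2, a ribonucleotide reductase subunit, the most raised (0.70 ± 0.016) and Pola1, a polymerase alpha subunit, the most lowered (-0.48 ± 0.028). Slbp, which binds the histone stem-loop, rose from 120.4 to 144 CPM (0.26 ± 0.021). Of 20 mitotic genes 9 rose and 7 fell, with Mki67 at 958 ± 11.7 CPM in Male and 851 ± 12.9 CPM in WT (-0.17 ± 0.014) and Top2a not passing (-0.01 ± 0.014). Ribosome biogenesis genes rose in 18 of 22 cases and fell in 2, with Srm, spermidine synthase, at 0.73 ± 0.025, the nucleolar protein Nolc1 at 0.59 ± 0.027, and Myc itself not passing (-0.05 ± 0.028). Cytosolic ribosomal protein genes had 16 higher and 41 lower of 81, with a median of only -0.07.

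Among the metabolic lists, glycolysis genes were 10 higher and 8 lower of 22 identifiers (median 0.02), with hexokinase Hk2 raised (0.72 ± 0.021) and Aldoc lowered (-1.10 ± 0.049). Hypoxia genes fell in 14 of 19 cases and Bnip3 rose (0.23 ± 0.022). Vegfa, the angiogenic factor that hypoxia and ATF4 both induce, was at 46.5, 49.4 and 47.7 CPM in Male and 14.8, 14.2 and 14.1 CPM in WT (-1.73 ± 0.038). Cholesterol synthesis genes had 15 of 25 higher and 6 lower, with Pmvk (-0.88 ± 0.046) among the lower and Hsd17b7 (0.71 ± 0.041) among the higher, both enzymes of the pathway. The sterol response element TCACNCCAC occurred in 1 of their 17 promoters in RefSeq, that of Hmgcs1, and in 331 of 27025 overall (1.22%). In fatty acid synthesis Fasn rose from 748 to 1281 CPM (0.78 ± 0.012), 6 genes rose and 4 fell of 12. Transcripts of the mitochondrial genome had 3 higher and 8 lower of 13, and nuclear complex I genes 15 higher, 2 lower and 16 not passing of 33, none of them by 1 log2 unit.

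Immediate early genes, which report recent signalling, had 11 higher and 5 lower of 19. WT and KD libraries all lay above the Female and Male libraries in 5 of the 19, and all below them in 4. Jun was at 29.2, 31.1 and 29.99 CPM in Male and 96.4, 101 and 97.4 CPM in WT (1.71 ± 0.034), Egr3 rose from 0.969 to 4.38 CPM and Egr1 from 8.25 to 16.8 CPM, while Nr4a1 fell from 12.98 to 6.84 CPM (-0.92 ± 0.075) and the NF-kappaB inhibitors Nfkbia and Tnfaip3 fell (-0.88 and -0.72). BCL2 family and caspase genes had 6 higher and 5 lower of 15. Bak1, a pore-forming death effector, rose (0.65 ± 0.023), as did Bcl2l1, which encodes the survival protein BCL-XL (0.58 ± 0.022), and Birc2, which restrains caspases, fell (-0.41 ± 0.033).

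Apart from Xist, sex-linked and Kdm5 genes differed little between these male groups. Kdm5a and Kdm5b, the autosomal family members, fell (-0.20 and -0.38), and the X-linked Kdm5c rose by 0.10. The Y-linked Ddx3y, Uty and Eif2s3y fell (-0.14, -0.23 and -0.17), but once trends with transcript length and GC content were removed Ddx3y turned to 0.04 and none of the 3 passed. Their X-linked partners Ddx3x and Eif2s3x rose by 0.24 and 0.11, while Kdm6a fell by 0.18. Xist was at 0.951, 1.27 and 1.28 CPM in Male and 0.129, 0.136 and 0.124 CPM in WT (-3.16 ± 0.26), against 2322 CPM in Female.

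Besides Plec, Gpt2 and Eif4ebp1, the 12 rising and 12 falling genes with the lowest p, among those above 10 CPM with a difference of at least 1 log2 unit, held 6 outside the lists. Upward these were Ccn3, a secreted matricellular protein at 8.44, 7.93 and 8.15 CPM in Male and 112, 114 and 112 CPM in WT (3.79 ± 0.035), the metalloprotease gene Adam8 (from 63.9 to 263 CPM), AA467197 (from 23.7 to 157 CPM) and the chondroitin synthase gene Chsy1 (from 243 to 591 CPM). Downward they were Fam129a, also a known ATF4 target (from 222 to 67.8 CPM), and the chloride channel family gene Clic4 (from 452 to 174 CPM). All 6 lay on one side in WT and KD together and on the other in Female and Male.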

How the data were processed

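RNA was extracted with a QIAGEN kit and stranded total RNA libraries were made after ribosomal RNA depletion, per the labels' protocols. The submitters' processing notes name bcl2fastq 2.20.0, HISAT2, StringTie, DESeq2 and mm10. Raw counts for each gene, as the authors deposited them in 2 tables, were joined here on 55487 shared identifiers. GENCODE M21 (GRCm38) named 55227 of them. Use of strand in counting is not given in the sources used here, so overlapping antisense genes cannot be separated.

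Differences were fitted on WT and Male alone with edgeR 4.0.16 in R 4.3.3 (TMM, filterByExpr, quasi-likelihood test, Benjamini-Hochberg over 20304 genes). The SE is the absolute log2 fold change over the square root of F. The script was tested on simulated data. Floors are 3 counts per library and cover counting error only. The 37 gene lists, 13 marker lists and members were chosen with earlier results of these data known, and 3 lists were added after values were seen. Named genes are the 12 of lowest p per direction (absolute log2 fold change of at least 1, at least 10 CPM in the higher group, groups apart, not X or Y), up to 4 called members per list and direction with at least 1 CPM, the sex-linked and Kdm5 genes, and other listed members needed to describe a list. Some genes that the rule names are not reported here. Those outside the rule are named as chosen after their values were seen. Of 230 named genes that were tested, 38 share over 10% of their 31-base subsequences with another gene, among them Tgtp1 (84.4%), Hspa1b (68%), Ifit3 (61.8%), Phgdh (55.9%), Ifitm2 (55.5%), S100a4 (49.2%), Hspa8 (43.6%) and Gzme (42.1%), so their counts are uncertain. Replicate numbers are in the titles only, and nothing states that they link samples across the groups, so samples were not paired. Deviations of same-numbered samples correlated at 0.025 to 0.081, and those of differently numbered samples at a mean of -0.027.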

Additional observations from a re-analysis of the deposited data

How the results depend on the processing

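The count of genes called stayed within 9361 to 10202 in 17 of the 21 alternatives: other scaling factors, DESeq2 1.42.0, limma-voom 3.58.1, all 12 samples in one fit, no filter, thinning, counts divided by 4, removal of length and GC trends, the replicate block with and without that removal, and each replicate left out (9361 to 9529). It was 7406 of 9610 genes under a stricter filter (mean log2 CPM of 3 or more), 8707 for protein-coding genes, 8108 at an adjusted p under 0.01, and 1629 (790 higher, 839 lower) with a minimum of 1 log2 unit. Of the main calls 90.4% or more were shared by each scaling, test and trend alternative without the block, and 24 shared calls changed sign once length and GC trends were removed. Adding the replicate number as a block gave 9862 calls. Every sample correlated best with its own number in the other group, a hint from the data, not the design. Under the block Tsg101 passed (0.11) and no other named gene changed its call. Kdm5d, whose count chose the Male libraries, was 0.948 CPM higher in WT on the scale used here and gave -0.653 CPM with unscaled library sizes, a description with no test.

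Of 230 named genes that were tested, 129 kept their direction and side of the threshold in every alternative, and 85 called genes missed only by size the minimum of 1 log2 unit. Reversals were confined to genes near 0. With length and GC trends removed these were Ccl5 (-0.0098), Cd8b1 (-0.022), Ddx3y (0.043), H2-D1 (-0.109), Hspa4l (0.031), Lag3 (-0.0096), Mif (0.076) and Top2a (0.064), and with the replicate block added the same genes gave -0.0098, -0.022, 0.043, -0.109, 0.031, -0.0093, 0.076 and 0.064. Edem1 was -0.0043 with upper-quartile factors, -0.0088 with the stricter filter and -0.0014 among protein-coding genes, and H2-D1 was -0.0074, -0.012 and -0.0045 there. Leaving out single libraries gave both signs for Top2a (-0.023 to 0.0018), Vps4a (-0.073 to 0.025), H2-D1 (-0.00031 to 0.018) and Mif (-0.022 to 0.0011). The cause was not tested.

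Each Male and WT library held 87925263 counts or more, while the smallest KD library held 78748647 and the smallest Female library 85633225. Levels at or near 0 in Male, such as Gzmd to Gzmg, rest on few counts.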

Other observations

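Genes outside the lists, chosen after their values were seen, extend several groups. Some amino acid transporter and enzyme genes fell: Cth, which makes cysteine from cystathionine, fell from 5.63 to 0.315 CPM (-4.14 ± 0.19), the glycine transporter gene Slc6a9 from 34.9 to 2.31 CPM (-3.92 ± 0.10), the neutral amino acid transporter gene Slc1a4 from 44.7 to 7.07 CPM (-2.66 ± 0.074) and the cationic transporter gene Slc7a3 from 27.1 to 4.33 CPM (-2.64 ± 0.067). Xpot, the exportin of tRNA, fell from 324 to 151 CPM (-1.10 ± 0.018). All 5 lay below the Female and Male libraries in each WT and KD library.

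Cell cycle inhibitors of the INK4 locus rose. Cdkn2a, which encodes p16 and ARF, was at 8.25, 8.87 and 7.93 CPM in Male and 48.4, 50.4 and 51.8 CPM in WT (2.59 ± 0.048), with 3.77 CPM in Female and 15.4 CPM in KD. Its neighbour Cdkn2b, which encodes p15, rose from 6.73 to 29.1 CPM (2.11 ± 0.094). Klra5, an NK-type lectin receptor gene, had no count in Male and 5.60, 4.96 and 5.13 CPM in WT, at least 161-fold higher against the floor of 3 counts per library, and 0.631 CPM in KD. Cdh1, which encodes E-cadherin, rose from 8.04 to 58.3 CPM (2.86 ± 0.051), the lamin gene Lmna from 5.23 to 25.03 CPM (2.26 ± 0.075), the membrane protein gene Emp1 from 6.36 to 45.9 CPM (2.85 ± 0.044), and the costimulatory ligand genes Cd80 from 3.63 to 23.6 CPM and Tnfsf4, encoding OX40L, from 0.723 to 6.06 CPM. Tsc22d3, a target of glucocorticoid and FOXO signalling, fell from 55.9 to 15.3 CPM (-1.87 ± 0.044), against 186 CPM in Female.

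Small nuclear and nucleolar RNA genes were 10 higher and 20 lower of 89 tested of 176 listed. Their list median was 0.26, opposite in sign to the balance of calls, and it turned to -0.21 under the stricter filter on low counts.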
